A study of Mus musculus with 45 samples.

Results

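To follow the genes of transforming growth factor beta (TGF-beta) signalling through inflammatory stimulation, 10 genes were taken by name from all 3 count tables of the study, which list 55450 gene identifiers for slice microglia, 47643 for adult microglia and 43411 for brain tissue. They are the ligand Tgfb1 and its anchor Nrros, the receptors Tgfbr1 and Tgfbr2, the signal-transducing Smads Smad2, Smad3 and Smad4, and the inhibitors Smad7, Ski and Skil. All 10 were measured in all 45 samples and passed the filter on low counts in every table. The samples came from C57BL/6 mice, with adult microglia and brain samples labelled WT (wild type). Microglia, sorted as CD11b high and CD45 intermediate cells, came from coronal slices of neonatal brain that had been in culture for 2 weeks. For the last 24 h the slices were kept in culture medium only (9 samples) or received a cytokine, either tumor necrosis factor (TNF) at 50 ng/mL (11 samples) or GM-CSF, granulocyte-macrophage colony-stimulating factor, at 20 ng/mL (9 samples). According to the labels 3 slices were pooled per sample, while the study's figure legend gives 2 to 3. Per the study's methods the culture medium held horse serum, and platelet-derived growth factor was added at each medium change. Adult microglia came from mice of 10 to 15 weeks, female per the study's methods, 24 h after an intraperitoneal dose of 1 mg/kg lipopolysaccharide (LPS, a bacterial cell wall component, 4 samples) or phosphate-buffered saline (PBS, 4 samples). Whole brain tissue came from mice of the same 10 to 15 weeks given the same LPS dose 24 h earlier (4 samples) or left untreated (4 samples), so the brain controls had received no injection.

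TGF-beta1 is secreted in a latent form, which on microglia is held at the cell surface by the anchor protein NRROS until the active ligand is released. The ligand binds the type II receptor TGFBR2, which recruits and phosphorylates the type I receptor TGFBR1, and TGFBR1 phosphorylates SMAD2 and SMAD3, which enter the nucleus together with SMAD4. SMAD7 acts at the receptor to switch the signal off, SKI and SKIL (SnoN) bind Smad proteins and repress their targets, and in the brain this pathway is known as a signal that microglia need for their mature gene expression.

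Slice libraries held 5973364 to 9165485 counts, adult microglia libraries 11391564 to 14216005 and brain libraries 8199863 to 10368578. Among the last, the LPS libraries (8199863 to 9452488) lay below the untreated ones (9641550 to 10368578). Levels are given as CPM, the counts brought to a common library total after correction for library composition. Summed over 6 microglial markers, all of them detected in each group, levels were 16410 to 23440 CPM in medium, 9005 to 11870 with TNF, 11500 to 13270 with GM-CSF, 50660 to 56740 in PBS microglia and 35600 to 39800 in LPS microglia. The 4 neuronal markers summed to at most 7.41 CPM in any sorted sample, against 4267 to 4727 CPM in brain tissue. The 8 markers of monocytes and border macrophages summed to 288 to 862 CPM in slice microglia, led by F13a1 in each slice group, and in adult microglia, with 8 of 8 detected, to 16.3 to 22.4 CPM with PBS and 28.2 to 41.0 with LPS. The 4 neutrophil markers summed to 15.5 to 36.8 CPM with PBS, with 4 detected, and to 1.61 to 4.74 with LPS, with Ly6g and Retnlg at 0. In brain tissue the 4 oligodendrocyte markers, all detected, summed to 4826 to 5180 CPM untreated and 3540 to 4094 after LPS. The part of these other cells in the results that follow was not tested, and in bulk samples fewer cells of a type and less RNA per cell cannot be told apart.

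Levels of different genes were compared only per kilobase of exon, taking all annotated exons of a gene together. The length of the transcripts in use was not measured, and the orders below depend on it. In slice microglia kept in medium, Nrros stood highest at 111 ± 17.7 CPM per kb (mean ± SD, n = 9), followed by Tgfbr1 at 71.49 ± 7.996 and Tgfbr2 at 65.4 ± 10.2. Ski (43.1 ± 9.57) and Tgfb1 (40.1 ± 4.91) came next, and each of these 5 genes overlapped in single libraries with its neighbour in the order. Smad4 (26.7 ± 4.30) lay below Tgfb1 in every library, though narrowly (highest Smad4 library 33.4, lowest Tgfb1 library 34.0), and Skil (11.02 ± 1.62) below Smad4. Smad7, Smad3 and Smad2 shared the bottom of the order at 6.52 to 6.63 CPM per kb, with overlapping libraries. Adult PBS microglia had another leader: Tgfbr1 reached 382 ± 21.5 CPM per kb (n = 4), above Tgfbr2 at 116 ± 9.82 and Nrros at 90.5 ± 3.22, with no overlap between these neighbours. Smad2 was lowest there at 9.18 ± 0.234 CPM per kb, and the overlapping neighbours were Skil with Smad4 and Smad4 with Smad3. In untreated brain tissue the corepressor Ski led at 28.5 ± 1.42 CPM per kb, Smad3 followed at 13.3 ± 1.01, and Nrros (1.31 ± 0.239) and Tgfb1 (0.878 ± 0.125) were lowest. Slice, adult and brain samples were prepared and counted separately, so the differences between these 3 orders were not tested.

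**Figure D1:**
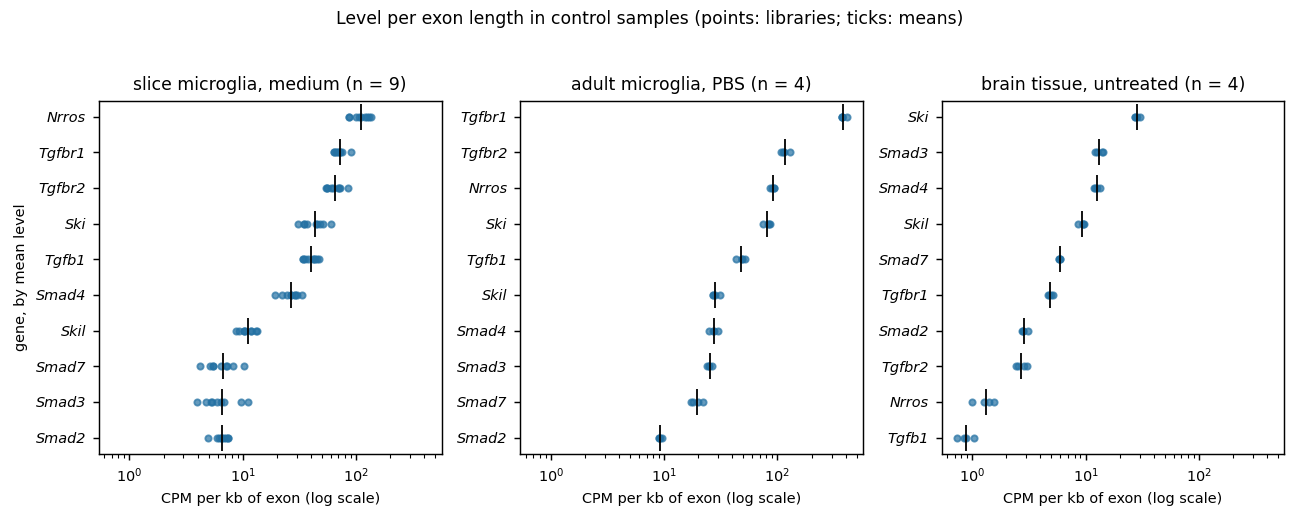
Level of each gene in CPM per kb of exon (log scale) in the control samples of the 3 tables, with 1 point per library and a tick at the mean, ordered by mean. Tgfbr1 leads in adult PBS microglia at 382 CPM per kb, Nrros in slice microglia at 111 and Ski in brain tissue at 28.5.

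To compare the treatments, a gene was called changed when its adjusted p was under 0.05 and its fold change over 1.5. TNF lowered 3 of the 10 genes (Tgfbr1, Tgfbr2 and Smad7) and raised 0, where 11.7% of the 11313 genes tested were called lower and 9.1% higher. GM-CSF lowered the same 3 genes and raised 0, against 5.96% of all genes called lower and 4.84% higher. These comparisons share the 9 medium samples, so their values are given side by side and no agreement is read from them. When TNF was set directly against GM-CSF, 1 gene (Ski) was lower with TNF and 0 were higher, against 7.96% and 8.25% of all genes. LPS lowered 1 of the 10 (Tgfbr1) in adult microglia and raised 0, where 13% of 12987 genes were called lower and 14.4% higher. In brain tissue LPS raised 1 (Tgfb1) and lowered 0, against 2.63% of 15083 genes called higher and 0.55% lower. The counts came from edgeR, and DESeq2 and limma gave the same counts in each direction in all of these comparisons. By unadjusted p under 0.05 alone, edgeR had 1 gene higher and 4 lower with TNF, 1 and 5 with GM-CSF, 1 and 1 between the cytokines, 1 and 7 after LPS in adult microglia, and 3 and 2 in brain tissue. By that criterion 46.8% of all genes passed with TNF, 35.2% with GM-CSF, 39.0% between the cytokines, 57.1% in adult microglia and 23.5% in brain tissue, in both directions together. The median log2 fold change of the 10 genes was -0.19 with TNF and -0.23 with GM-CSF, beside -0.03 and -0.04 over all genes tested. It was -0.29 with LPS in adult microglia and 0.11 in brain tissue, beside 0.01 and 0.00 over all genes.

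**Figure D2:**
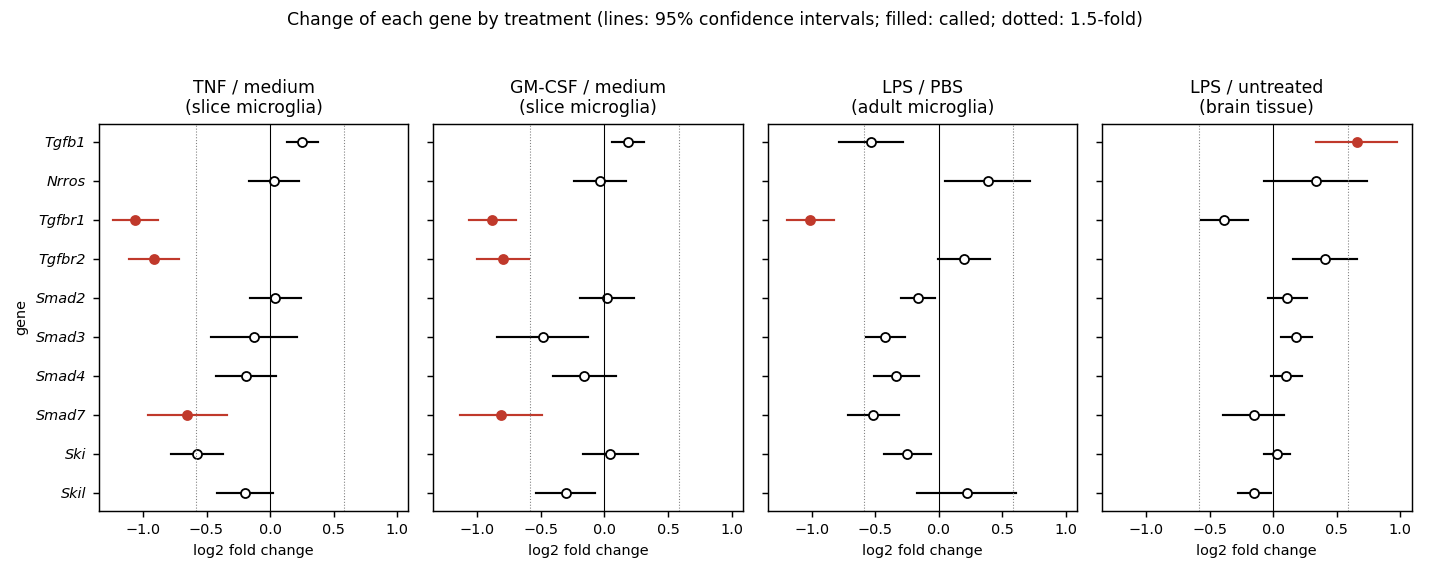
Log2 fold change of the 10 genes in each of the 4 treatments against its own control, with 95% confidence intervals as lines, called genes filled and dotted lines at a fold change of 1.5. Tgfbr1 lies left of 0 in all 4 panels, at -1.06, -0.88, -1.01 and -0.38, while Tgfbr2 is at -0.91 and -0.80 with the cytokines and at 0.20 and 0.41 with LPS.

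Tgfbr1 had the largest change of the 10 genes in each of the 3 microglia treatments. It encodes the type I receptor kinase and lies on chromosome 4 (GRCm38 positions 47353222 to 47414931, plus strand). Tgfbr2 encodes the type II receptor that binds the ligand first and lies on chromosome 9 (116084293 to 116175360, minus strand). Both receptor genes fell with both cytokines, and their promoters are shown here, taken from RefSeq (GRCm38.p6) as the 250 bases before the start site and read 5′ to 3′ along the gene. Capitals mark the short Smad-binding sequence CAGAC on either strand.
Tgfbr1, chr4:47352972-47353221, plus strand: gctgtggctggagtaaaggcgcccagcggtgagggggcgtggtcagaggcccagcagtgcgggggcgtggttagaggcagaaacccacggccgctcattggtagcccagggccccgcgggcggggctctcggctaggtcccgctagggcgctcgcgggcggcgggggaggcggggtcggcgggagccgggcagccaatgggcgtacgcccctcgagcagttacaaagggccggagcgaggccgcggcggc
Tgfbr2, chr9:116175364-116175613, minus strand: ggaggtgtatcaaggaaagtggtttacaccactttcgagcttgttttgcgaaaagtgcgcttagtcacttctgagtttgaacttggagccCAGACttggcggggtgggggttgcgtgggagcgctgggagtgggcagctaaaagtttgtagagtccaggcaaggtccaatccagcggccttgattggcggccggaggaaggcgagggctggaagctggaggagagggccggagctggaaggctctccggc
The Tgfbr2 window held 1 match, starting at position -160 counted back from the start site, and the Tgfbr1 window shown held 0. RefSeq lists a second Tgfbr1 start site at 47386216, inside the gene, whose window (52.8% G and C, 3 CG pairs) held 1 match at position -203. Of 32851 RefSeq promoter windows of this length, 42.2% held a match, so a single match is common. The Smad palindrome GTCTAGAC (0.167% of all windows), the AP-1 sequence TGANTCA (6.75%), the STAT sequence TTCNNNGAA (7.02%) and the NF-kappaB consensus (3.90%) were each searched on both strands and had 0 matches in any of the 3 windows. G and C made up 74.8% of the Tgfbr1 window shown, with 29 CG pairs, and 58.4% of the Tgfbr2 window, with 12, beside medians of 52.4% and 6 over all windows. RefSeq windows matched 6 of the 10 genes, and Smad2, Smad4, Smad7 and Skil had none.

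In slice microglia Tgfbr1 ran from 420 to 590 CPM in medium (median 464), from 196 to 266 with TNF (median 217) and from 177 to 353 with GM-CSF (median 239). All 11 TNF libraries and all 9 GM-CSF libraries lay below the lowest medium library. The log2 fold change was -1.06 ± 0.087 (SE) for TNF, a 2.08-fold fall with adjusted p = 2.55e-12, and -0.88 ± 0.092 for GM-CSF, a 1.84-fold fall with adjusted p = 3.02e-09. Between the cytokines Tgfbr1 differed by -0.18 on the log2 scale (95% interval -0.35 to 0.0017, adjusted p = 0.132), which did not pass the test. Adult microglia gave a fall of the same gene after LPS. The 4 PBS libraries had 2708, 2450, 2420 and 2416 CPM and the 4 LPS libraries 1100, 1294, 1157 and 1408, with no overlap, a 2.02-fold fall (log2 -1.01 ± 0.085, adjusted p = 2.92e-06). The summed monocyte and neutrophil markers did not overlap between these groups either, and their part in the adult LPS changes was not tested. Brain tissue held 34.0, 30.4, 30.8 and 32.6 CPM of Tgfbr1 in untreated and 28.7, 24.9, 21.5 and 22.6 in LPS samples, again with no overlap. That log2 difference of -0.38 ± 0.087 had an adjusted p of 0.00984 but stayed under the 1.5-fold limit.

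Tgfbr2 fell in the slices with both cytokines and was not called after LPS. Its levels were 449 to 701 CPM in medium (median 513), 219 to 394 with TNF (median 282) and 258 to 396 with GM-CSF (median 292), so no cytokine library reached the medium range. The fall was 1.88-fold with TNF (log2 -0.91 ± 0.097, adjusted p = 1.03e-09) and 1.74-fold with GM-CSF (log2 -0.80 ± 0.10, adjusted p = 1.69e-07). In adult microglia the PBS libraries had 1064, 941.8, 917.9 and 876.6 CPM and the LPS libraries 1287, 1018, 988.9 and 1074. Of the 4 LPS libraries 2 exceeded every PBS library and 0 fell below them, and the log2 difference of 0.20 (95% interval -0.0031 to 0.40, adjusted p = 0.0921) did not pass the test. Brain tissue had 23.3, 19.8, 24.9 and 20.7 CPM untreated and 34.0, 29.4, 22.6 and 31.6 after LPS, a log2 difference of 0.41 ± 0.12 with adjusted p = 0.0406 that stayed under the fold limit.

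**Figure D3:**
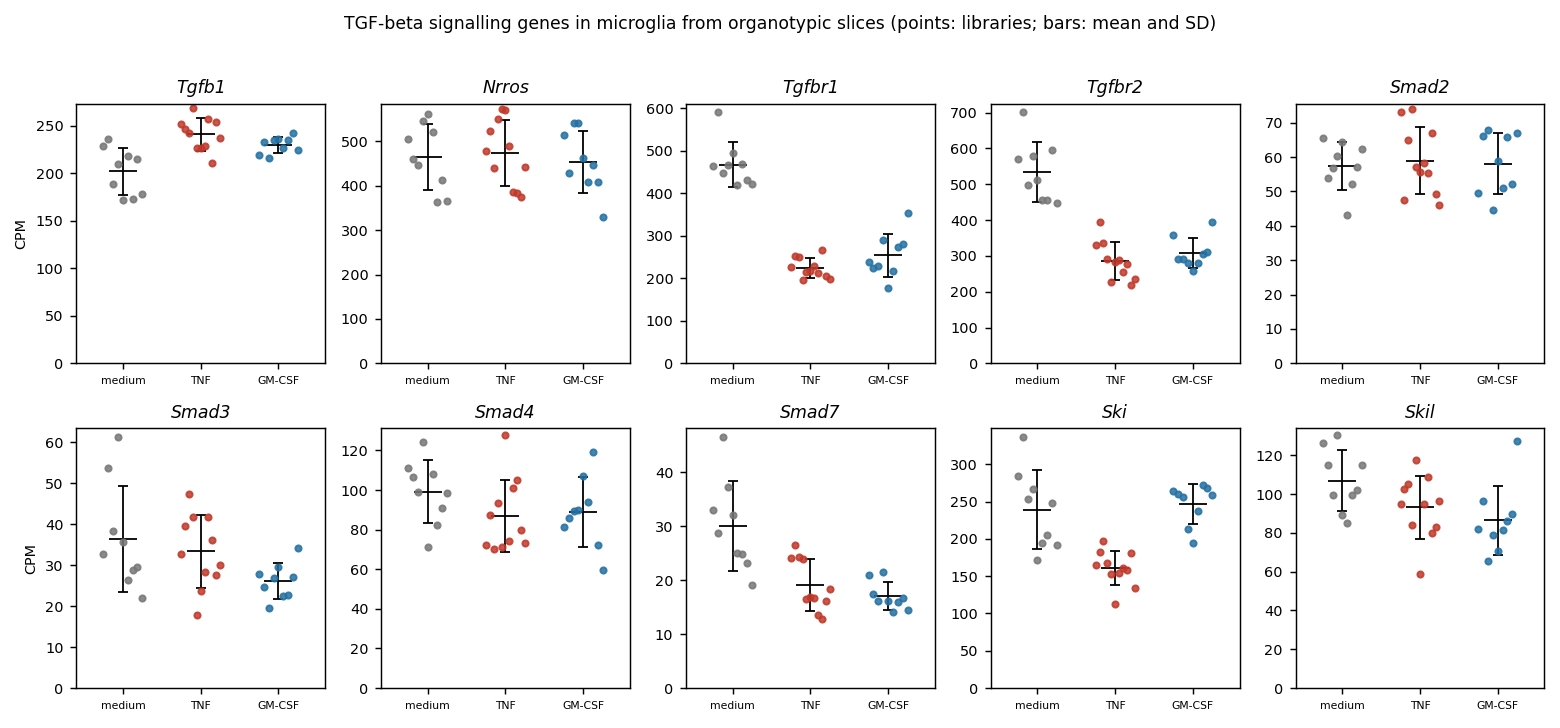
CPM of each gene in slice microglia in medium (n = 9), TNF (n = 11) and GM-CSF (n = 9), with 1 point per library and bars for the mean and SD on axes that start at 0. The cytokine points of Tgfbr1 and Tgfbr2 all lie below the medium points, and Ski is lower in the TNF column (160.7 CPM on average) than in medium (239) or GM-CSF (247).

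The slice samples came from 4 independent experiments. Their titles carry a code (1A, 1B, 2A or 2B), and whether the codes mark those experiments is not stated. Within codes 1A and 1B the log2 fold change of Tgfbr1 was -1.11 with TNF and -1.004 with GM-CSF, and within 2A and 2B it was -1.02 and -0.77. Tgfbr2 gave -0.91 and -0.94 within 1A and 1B, and -0.96 and -0.66 within 2A and 2B. All of these within-code values passed the same test.

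The ligand and its anchor were not called in the slices. Tgfb1, on chromosome 7 (25687002 to 25705077, plus strand), ran from 172 to 237 CPM in medium (median 210), from 211 to 269 with TNF (median 242) and from 216 to 243 with GM-CSF (median 233). Of the TNF libraries 7 of 11, and of the GM-CSF libraries 1 of 9, lay above every medium library. The log2 differences of 0.25 ± 0.060 with TNF (adjusted p = 0.000822) and 0.19 ± 0.063 with GM-CSF (adjusted p = 0.0254) were below the fold limit. After LPS, Tgfb1 stood on opposite sides of its control in the sorted cells and in the tissue. PBS microglia had 262, 246, 244 and 217 CPM and LPS microglia 209, 170.5, 148 and 141, every LPS library lying below every PBS library. Its log2 difference there was -0.54 ± 0.11 (adjusted p = 0.0023), just short of the fold limit, and it passed the limit at -0.67 without LPS replicate 1 and at -0.59 without PBS replicate 4.

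Brain tissue held 3.72, 5.25, 4.45 and 4.28 CPM of Tgfb1 untreated and 7.28, 6.60, 6.65 and 7.41 after LPS, again with no overlap. This was a 1.58-fold rise (log2 0.66 ± 0.15, adjusted p = 0.0102), resting on 37 to 54 counts per untreated library and 55 to 69 per LPS library. The call was lost without untreated replicate 1 (log2 0.58, adjusted p = 0.0396), where the fold fell just under the limit. Beside this rise, the monocyte and border macrophage markers summed to 10.4 to 14.8 CPM in LPS brains and 6.43 to 8.28 in untreated ones, with 7 of 8 markers detected and Mrc1 at 0 in both. The neutrophil markers summed to 2.66 to 6.74 CPM against 0.389 to 0.828, with 3 of 4 markers found, and the microglial markers to 205 to 344 against 240 to 274. Their part in the Tgfb1 rise was not tested.

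Nrros, on chromosome 16 (32142785 to 32165594, minus strand), passed the test in 0 of the 4 treatments. Its medians in slice microglia were 460 CPM in medium, 479 with TNF and 446 with GM-CSF, with overlapping ranges. The 4 PBS microglia libraries were tightly grouped at 386, 361, 373 and 391 CPM, while the LPS libraries spread over 623, 345, 468 and 537, of which 3 exceeded every PBS library and 1 fell below them. The log2 difference was 0.38 ± 0.15 (95% interval 0.052 to 0.72, adjusted p = 0.0532). In brain tissue its level was 4.18 to 6.51 CPM untreated and 5.49 to 9.19 after LPS (adjusted p = 0.308).

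The signal-transducing Smads were called in 0 of 4 treatments, with some adjusted p under 0.05 but each fold under the limit. Smad2, a substrate of the type I receptor, differed from medium by 0.04 on the log2 scale with TNF (95% interval -0.16 to 0.24) and by 0.02 with GM-CSF (-0.19 to 0.23). Smad3, the other receptor substrate, was the most variable of the 3 in the slices, at 22.0 to 61.2 CPM in medium (median 32.7), 17.8 to 47.3 with TNF (median 32.6) and 19.5 to 34.2 with GM-CSF (median 26.9). Its log2 difference with GM-CSF was -0.49 ± 0.18 (adjusted p = 0.0378), under the fold limit, and the value was -0.91 within codes 1A and 1B, where it was called, and -0.05 within codes 2A and 2B. Smad4, the shared partner, had log2 differences of -0.19 with TNF (adjusted p = 0.202) and -0.16 with GM-CSF (adjusted p = 0.381), with overlapping libraries.

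In adult microglia all 3 Smads were slightly lower after LPS, in a comparison where 57.1% of all genes had an unadjusted p under 0.05. Smad3 had 133, 148, 138 and 139 CPM in PBS and 110.0, 99.8, 95.2 and 112 in LPS libraries (log2 -0.42 ± 0.071, adjusted p = 0.000405). Smad4 had 103, 111, 101 and 92.8 CPM against 75.0, 87.3, 86.6 and 74.8 (log2 -0.33 ± 0.081, adjusted p = 0.00442). For Smad2 the levels were 79.3, 83.5, 80.7 and 79.0 CPM against 74.1, 73.4, 68.0 and 71.9 (log2 -0.17 ± 0.062, adjusted p = 0.0394). In each of the 3 genes every LPS library lay below every PBS library, and in each the fold stayed under 1.5. The share of all genes with groups separated in this way was not counted. In brain tissue the log2 differences were 0.18 for Smad3 (adjusted p = 0.0576), 0.10 for Smad4 (adjusted p = 0.305) and 0.11 for Smad2 (adjusted p = 0.383).

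**Figure D4:**
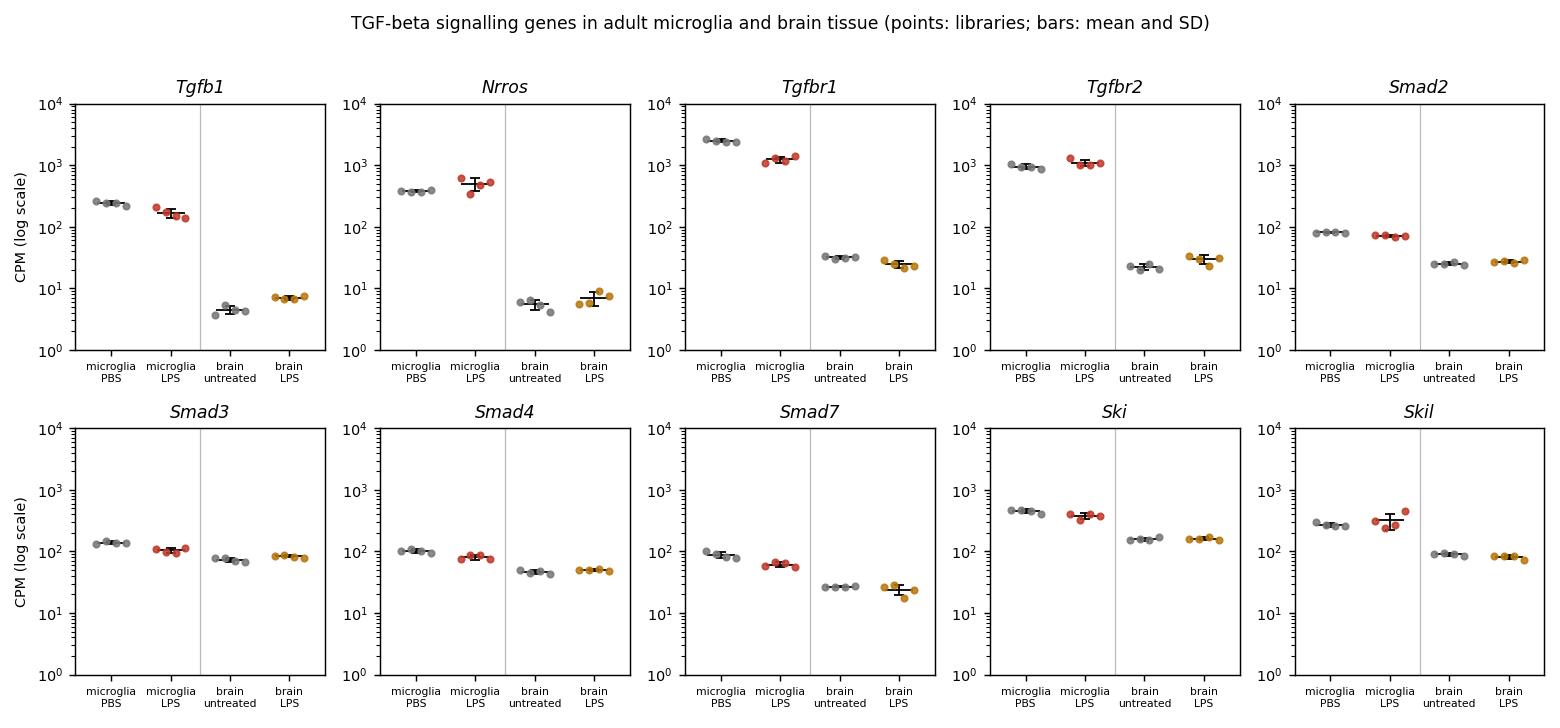
CPM on a log scale of each gene in adult microglia (PBS, LPS) and brain tissue (untreated, LPS), 4 libraries each, with the mean and SD as bars and a line between the separately made tables. Tgfbr1 drops from a mean of 2499 to 1240 CPM in microglia, and Tgfb1 is at 242 and 167 CPM there but at 4.42 and 6.99 in brain tissue.

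Among the inhibitors, Smad7 fell with both cytokines and Ski separated them. Smad7, itself a target of TGF-beta signalling that blocks the receptor, ran from 19.0 to 46.5 CPM in medium (median 28.8), from 12.9 to 26.5 with TNF (median 16.8) and from 14.1 to 21.5 with GM-CSF (median 16.2). Of the TNF libraries 7 of 11 and of the GM-CSF libraries 7 of 9 lay below every medium library, the ranges overlapping. The fall was 1.57-fold with TNF (log2 -0.65 ± 0.15, adjusted p = 0.000658) and 1.75-fold with GM-CSF (log2 -0.81 ± 0.16, adjusted p = 0.000175). In adult microglia Smad7 had 99.9, 90.8, 81.8 and 77.4 CPM with PBS and 57.3, 67.0, 64.4 and 56.4 with LPS, without overlap, and its log2 difference of -0.51 ± 0.093 (adjusted p = 0.000644) stayed below the fold limit. Brain tissue had 26.2 to 27.2 CPM untreated and 17.8 to 28.2 after LPS (log2 -0.15, adjusted p = 0.446).

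Ski, a corepressor on chromosome 4 (155154075 to 155222592, minus strand), ran from 172 to 337 CPM in medium (median 249), from 113 to 197 with TNF (median 161) and from 194 to 273 with GM-CSF (median 259). With TNF, 8 of 11 libraries lay below every medium library and 10 of 11 below every GM-CSF library. Against GM-CSF the TNF samples were 1.54-fold lower (log2 -0.62 ± 0.10, adjusted p = 5.78e-06), the one member called between the cytokines. Against medium the TNF difference was -0.58 ± 0.10 on the log2 scale (adjusted p = 1.51e-05), a fold of 1.49 that just missed the limit, and GM-CSF stood at 0.05 (95% interval -0.17 to 0.26). Within codes 1A and 1B the TNF value against medium was -0.80 and was called, and within 2A and 2B it was -0.36 and was not. The direct difference between TNF and GM-CSF was -0.60 and -0.66 within the same code pairs, called in both. In adult microglia Ski had 479, 464, 459 and 411 CPM with PBS and 409, 329, 412 and 378 with LPS (log2 -0.25, adjusted p = 0.026, under the fold limit), and in brain tissue the groups overlapped (log2 0.03, adjusted p = 0.759).

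Skil, the other corepressor, was called in 0 of 4 treatments. Its medians in slice microglia were 102 CPM in medium, 94.8 with TNF and 81.8 with GM-CSF, and the GM-CSF difference was -0.31 on the log2 scale (adjusted p = 0.0455). Adult LPS libraries reached 309.5, 245, 271 and 451 CPM beside 303, 271, 261 and 261 with PBS, so the groups overlapped (log2 0.22, 95% interval -0.17 to 0.61). In brain tissue Skil had 83.0 to 94.5 CPM untreated and 71.7 to 85.5 after LPS (log2 -0.15, adjusted p = 0.156).

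To ask whether the LPS response of these genes differed between sorted microglia and the tissue, the difference of the 2 log2 fold changes was tested over 16676 genes. Relative to brain tissue 3 of the 10 genes were called lower in microglia and 0 higher, where 10.6% of all genes were called lower and 9.1% higher. Tgfb1 had the largest difference, -1.20 ± 0.21 on the log2 scale (adjusted p = 0.000134), between -0.54 in microglia and 0.66 in the tissue. Tgfbr1 differed by -0.63 ± 0.13 (adjusted p = 0.00103), between -1.01 and -0.38, and Smad3 by -0.61 ± 0.096 (adjusted p = 5.51e-05), between -0.42 and 0.18. The call on Tgfbr1 was lost without LPS replicate 1 of either table, and that on Smad3 without LPS replicate 3 of the microglia, without untreated replicate 4 of the brain tissue, or with no filter on low counts. Smad4 (-0.45, adjusted p = 0.0021), Smad2 (-0.29, adjusted p = 0.0212) and Ski (-0.29, adjusted p = 0.0358) differed by less than the fold limit. By adjusted p alone 6 of the 10 genes were thus lower and 0 higher, against 16.3% and 14.5% of all genes. For Tgfbr2 the difference of -0.22 (95% interval -0.55 to 0.12) did not pass the test. The tissue of origin, the library kit and the kind of control (injected or untreated) change together here and cannot be told apart.

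The other genes of the pathway were followed as a list of 62 genes in 6 roles. In slice microglia 46 were tested: TNF raised 9 and lowered 8, with a median log2 fold change of 0.01 that became -0.06 when libraries were scaled by their total counts, and GM-CSF raised 1 and lowered 3, with a median of -0.21. Scaled by total counts, GM-CSF gave 4 higher and 2 lower calls. The shares of all genes were 9.1% higher and 11.7% lower for TNF, and 4.84% and 5.96% for GM-CSF. Among the genes of latency and activation, TNF raised Mmp14, a membrane metalloprotease that can release latent TGF-beta, 4.38-fold (adjusted p = 3.12e-10) from 119 ± 39.1 CPM (n = 9) to 522 ± 151 CPM (n = 11). It also raised Furin, the protease that cleaves the TGF-beta precursor, 1.59-fold (adjusted p = 1.45e-05), and lowered Ltbp3, a latent TGF-beta binding protein, 2.17-fold (adjusted p = 0.00109). Among the receptors, Acvrl1 (ALK1) rose 1.61-fold (adjusted p = 2.86e-07) and Acvr2b, a type II activin receptor, fell 1.95-fold (adjusted p = 0.011). Of the other Smads and partners, 1 of 7 tested was called, the ubiquitin ligase gene Trim33, which fell 1.68-fold (adjusted p = 0.0114). Both falls were at low levels, on average 4.73 CPM in medium and 2.41 with TNF for Acvr2b, and 9.49 and 5.68 for Trim33. With a minimum count of 50, 38 genes of the list were tested, and TNF raised 9 and lowered 6. Of 13 regulators tested, TNF raised 2, Tgif1 (a Smad corepressor, 1.65-fold) and Smurf1 (a ubiquitin ligase acting on Smads and receptors, 1.53-fold), and lowered 4, among them Wwp1 (another ligase of that family, 2.03-fold) and Pmepa1 (a TGF-beta-induced inhibitor, 1.59-fold).

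Of the genes listed in the role of TGF-beta targets, which leaves out Smad7 and Pmepa1, 9 were tested in the slices. TNF raised 3 of the 9 and lowered 0, with Cdkn1a, the cell cycle inhibitor p21, 2.48-fold higher (adjusted p = 2.53e-16) and Tgfbi, a secreted matrix protein, 3.76-fold higher (adjusted p = 3.21e-11). GM-CSF raised 1, Id1, an inhibitor of DNA-binding factors that also answers BMP signals, 5.04-fold from 6.11 ± 3.56 to 30.8 ± 10.0 CPM (n = 9 each, adjusted p = 1.16e-07). The GM-CSF calls among the other roles were Wwp1, which fell 1.74-fold (adjusted p = 0.000253), and the low-level ligands Tgfb3 (5.82-fold lower, adjusted p = 0.00385, at 1.196 to 11.4 CPM in medium and 0 to 1.41 with GM-CSF) and Gdf15 (1.89-fold lower, adjusted p = 0.0395). With TNF the ligand Bmp2 was called lower (3.04-fold, adjusted p = 0.0108) at 0 to 11.2 CPM in medium and 0.603 to 3.14 with TNF. Set directly against GM-CSF, TNF gave 10 higher and 2 lower calls among the 46 genes, beside 8.25% and 7.96% of all genes. Mmp14 (4.67-fold), Acvrl1 (1.93-fold), Tgif1 (2.24-fold), Cdkn1a (2.21-fold) and Junb, a transcription factor gene (1.84-fold), were higher with TNF, and Ltbp3 (2.92-fold) and Id1 (3.56-fold) were lower.

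After LPS, 41 genes of the list were tested in adult microglia, where 7 were called higher and 5 lower (median log2 fold change 0.02), and 56 in brain tissue, where 3 were higher and 1 lower (median 0.06). Over all genes 14.4% were called higher and 13% lower in microglia, and 2.63% and 0.55% in brain tissue. In microglia 5 of 6 target genes rose, with the smallest p for Klf10, a TGF-beta-inducible transcription factor gene (2.79-fold, adjusted p = 1.17e-06), and Cdkn1a (1.99-fold, adjusted p = 0.000312). Mmp14 rose 2.45-fold (adjusted p = 3.37e-05) and Smad6, an inhibitory Smad, 1.53-fold (adjusted p = 0.0057). The regulators Pmepa1 (1.95-fold, adjusted p = 8.49e-06) and Tgif2 (2.33-fold, adjusted p = 0.000135), the receptor Acvr2b (2.66-fold, adjusted p = 7.35e-05) and Ltbp3 (1.78-fold, adjusted p = 0.0284) fell. Ltbp3 was low in both groups, on average 3.21 CPM with PBS and 1.81 with LPS. The coreceptor Eng fell 2.15-fold (adjusted p = 1.64e-06). Beside it the endothelial markers summed to 28.6 to 36.1 CPM with PBS and 9.71 to 12.6 with LPS. Nearly all of this was Pecam1, on average 32.7 CPM with PBS and 10.9 with LPS. Cldn5 and Tek were at 0 in both groups, and Slco1a4 was at 0 with PBS. Any part of other cells in the fall of Eng was not tested. In brain tissue the 4 calls were Acvrl1 (1.71-fold higher, adjusted p = 2.61e-05), Id1 (1.83-fold higher, adjusted p = 0.000793), Tgfbi (1.75-fold higher, adjusted p = 0.00409) and Ltbp4, a latent TGF-beta binding protein (1.63-fold lower, adjusted p = 1.24e-06). Tgfbi was low there, on average 4.83 CPM untreated and 8.47 after LPS. The LPS effect differed between microglia and tissue in 9 of 56 genes, where 9.1% of all genes were called higher and 10.6% lower. It was higher in microglia for 4, among them Klf10 (2.79-fold, adjusted p = 0.000496) and Mmp14 (1.76-fold, adjusted p = 0.00529), and lower for 5, among them Eng (2.84-fold, adjusted p = 1.34e-07) and Smad1 (1.597-fold, adjusted p = 0.000142).

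**Figure D5:**
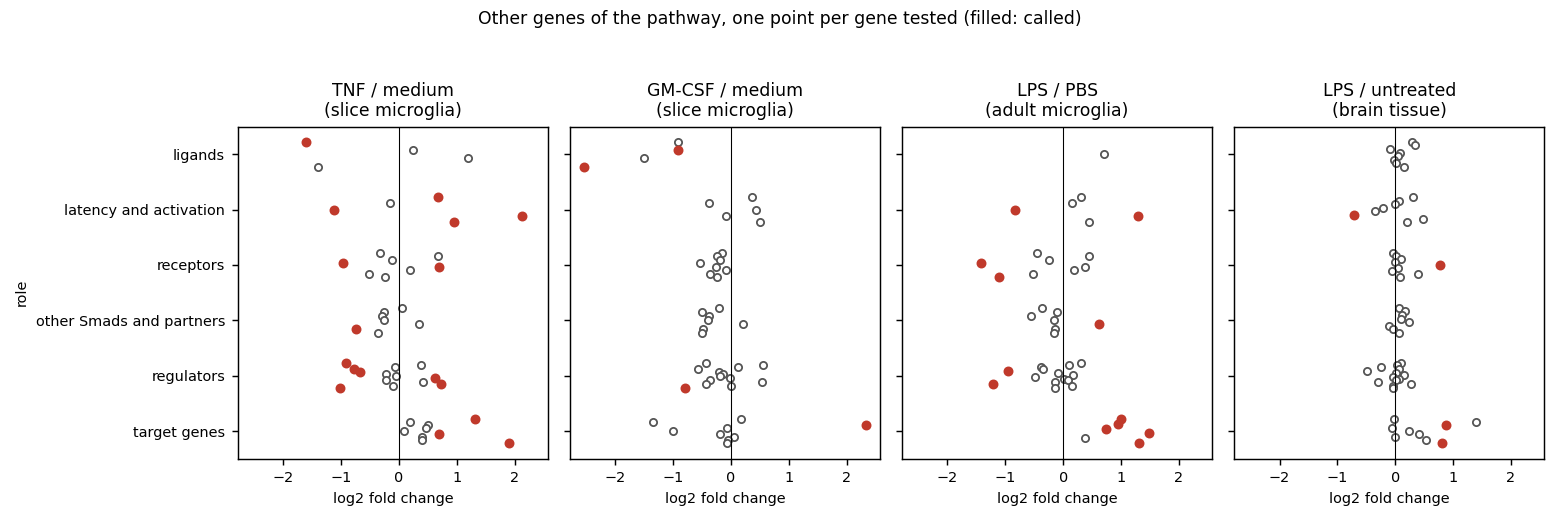
Log2 fold change of the other pathway genes tested, 1 point per gene, by role (rows) and treatment (panels), with called genes filled. Target genes lie to the right of 0 with TNF (9 of 9 tested) and with LPS in adult microglia (6 of 6), beside all-gene medians of -0.03 and 0.01. With GM-CSF 3 lie to the right and 6 to the left, and with LPS in brain tissue 6 and 3. GM-CSF has Id1 alone among called genes to the right of 0. Pmepa1, a TGF-beta-induced inhibitor placed among the regulators, lies to the left with TNF (-0.67) and adult LPS (-0.96). Smad7 is not plotted here.

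Last, 12 microglial genes were followed beside the receptors, among them genes whose expression is known to need TGF-beta signalling. TNF lowered 11 of the 12 and raised 0, with a median log2 fold change of -1.53 and the smallest p for P2ry12, a purinergic receptor gene of homeostatic microglia (8.93-fold lower, adjusted p = 5.22e-22), and Gas6, a ligand of the receptor MERTK (5.72-fold lower, adjusted p = 3.73e-20). GM-CSF lowered 7 and raised 0 (median -0.84), with the smallest p for P2ry12 (2.96-fold, adjusted p = 5.92e-13) and Gpr34, a lysophospholipid receptor gene (2.53-fold, adjusted p = 1.90e-11). Over all genes tested 11.7% were called lower with TNF and 5.96% with GM-CSF, with medians of -0.03 and -0.04. Set directly against GM-CSF, TNF had 7 of these 12 genes lower and 0 higher, P2ry12 by 3.02-fold and Gas6 by 2.87-fold, beside 7.96% and 8.25% of all genes. The receptors Tgfbr1 and Tgfbr2 were not called in that comparison, which does not show equal levels. Any part of the receptors in these genes was not tested. LPS lowered 5 of the 12 in adult microglia, among them P2ry12 (6.17-fold, adjusted p = 0.00017) and the transcription factor gene Sall1 (1.62-fold, adjusted p = 1.86e-05), and raised C1qa, a complement subunit (1.55-fold, adjusted p = 3.85e-05). In brain tissue it lowered 3, among them P2ry12 (2.97-fold) and Gpr34 (3.18-fold), and raised C1qa (2.42-fold) and Pros1 (1.71-fold). Gpr34 was low there, on average 8.49 CPM untreated and 2.63 after LPS, with 5 to 33 counts per LPS library. Over all genes LPS lowered 13% and raised 14.4% in adult microglia, and 0.55% and 2.63% in brain tissue. The LPS effect on Sall1 was lower in microglia than in tissue by 1.74-fold (adjusted p = 4.62e-05) and that on Mertk by 1.59-fold (adjusted p = 0.000375). Of the 12 genes 5 were called lower and 0 higher, beside 10.6% and 9.1% of all genes. The number called among the 12 became 10 without LPS replicate 2 of the microglia and 9 without LPS replicate 3 of the brain tissue.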

How the data were processed

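RNA sequencing was done on 45 mouse samples. The authors deposited raw counts per gene for slice microglia (STAR 2.7.0a, Subread 1.6.4 and featureCounts are named in the submitters' processing notes) and expected counts, which need not be whole, for adult microglia and brain tissue, whose counting tool is not given in the sources used here. All were on mm10. Expected counts were rounded. Per the study's methods, microglia went through SMART-Seq and Nextera XT kits and brain tissue through TruSeq. Symbols, exon lengths and positions came from GENCODE M21. Genes were filtered (minimum count 10, total 15), scaled by TMM and tested with the quasi-likelihood test of edgeR 4.0.16 with Benjamini-Hochberg adjustment over all genes of a table, all slice groups in 1 fit. The LPS difference was an interaction contrast over 16 samples. DESeq2 1.42.0, limma 3.58.1, other scalings, filters and left-out samples were alternatives. The fits were tested on simulated data. The 10 genes, the lists and the tests were chosen with earlier results of these data known. The 10 genes were fitted in every comparison. From each list and role, up to 2 called genes per direction were picked for naming by smallest p. Some picked genes are left out above. They are Tgfb2, Gdf15 and Smurf1 (higher with TNF than with GM-CSF) and, for the LPS difference, Acvr2b and Tgif2 (lower in microglia) and Id2 (higher). As the labels do not say which slices share a pup or day, p-values measure only the spread between these samples. Whether counting used strand is not stated; among the 10 genes the one overlapping gene, a pseudogene within Smad4, shares 0 exon bases. Same-numbered slice samples correlated at -0.041 to 0.184 after removing group means (median 0.072, against -0.021 for other numbers), and numbers were not treated as pairs. Samples with the same title code had a median of 0.08, against -0.031 for other codes. The main fit held no term for the code, and a fit with that term was an alternative.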

Additional observations from a re-analysis of the deposited data

Results flagged for a closer look

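The LPS effect differed between adult microglia and brain tissue, by the test of the difference itself and adjusted p alone, in 6 of the 10 genes, all of them lower in microglia than in the tissue, where 16.3% of all genes were lower and 14.5% higher. With the 1.5-fold limit 3 of them were called. The differences were -1.20 on the log2 scale for Tgfb1, -0.63 for Tgfbr1, -0.61 for Smad3, -0.45 for Smad4, -0.29 for Smad2 and -0.29 for Ski, with adjusted p from 5.51e-05 to 0.0358. All 4 LPS libraries lay below every control in microglia and above every control in brain tissue for Tgfb1 alone among the 10 genes. The share of all genes with that pattern was not counted.

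In 5 of 60 sets of libraries (1 gene in 1 group of 4 to 9 samples) a single library stood apart from the others by more than the 95% limit on its gap, where chance alone gives about 1 in 20. Tgfbr1 was at 590.0 CPM in medium replicate 2, the other 8 lying between 420 and 494, and at 2708 CPM in PBS replicate 1, the others lying between 2416 and 2450. Skil was at 127 CPM in GM-CSF replicate 9 (the others 65.7 to 96.2) and at 71.7 CPM in brain LPS replicate 4 (the others 84.6 to 85.5). Smad2 was at 27.2 CPM in untreated brain replicate 3 (the others 24.2 to 24.5).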

How the results depend on the processing

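Of 188 recomputed values of the 12 called results on the 10 genes, 182 kept their call, and every one kept its direction. These include, for each called result, the same fit without the fold limit, where neither call nor direction can change. Without the fold limit the number of the 10 genes called became 5 with TNF, 6 with GM-CSF, 7 and 3 with LPS in microglia and brain tissue and 6 for their difference, and the number of all genes called 4476, 2892, 6703, 1533 and 5136, with 3486 for TNF against GM-CSF. The pathway list then gave 14 (GM-CSF), 22 (adult LPS), 10 (brain) and 18 (difference) calls, and the microglial list 11 in adult microglia. Leaving out single libraries gave 1 to 2 of the 10 genes in adult microglia, 0 to 1 in brain tissue, and 4 to 10 microglial genes for the difference. A minimum count of 50 gave 288 calls among 11881 genes tested in brain tissue, against 479 among 15083. GM-CSF gave 785 calls in all within codes 2A and 2B and 1216 within 1A and 1B, against 1222, and 2 and 9 pathway calls, and the cause was not tested.

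Scaling by total counts moved the median of all genes by 0.105 (GM-CSF) and -0.17 (TNF against GM-CSF) on the log2 scale, and the share of calls that were higher from 44.8% to 63.9% and from 50.9% to 31.4%. Relative to that shift 0 of the 10 genes changed sign. That count is no separate check, since the scaling moves all genes by about the same amount. Signs turned only for values that were not called. With total counts these were, for TNF, Nrros (-0.035) and Smad2 (-0.025), for GM-CSF, Nrros (0.071), and for TNF against GM-CSF, Tgfb1 (-0.10), Nrros (-0.11), Smad2 (-0.15), Smad7 (-0.011) and Skil (-0.062). Within codes 1A and 1B they were, for GM-CSF, Nrros (0.054), Smad2 (-0.047) and Ski (-0.20), and for TNF against GM-CSF, Tgfbr2 (0.025) and Smad4 (0.014). Within codes 2A and 2B they were, for TNF, Nrros (-0.10), Smad2 (-0.021) and Smad3 (0.20), for GM-CSF, Smad4 (0.018), and for TNF against GM-CSF, Nrros (-0.0014), Smad2 (-0.11) and Smad7 (-0.014). With the title code as a term Nrros with TNF was at -0.026, and with no low-count filter Smad2 in TNF against GM-CSF at -0.0063. For the LPS difference, Nrros ran from -0.082 to 0.20 over the left-out libraries. The cause was not tested.

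Same-numbered samples were not treated as pairs, and a fit with the replicate block gave 2423, 1258, 1828, 3452, 448 and 3222 calls over the 6 comparisons and changed 0 of 60 calls on the 10 genes. Levels near 5 CPM in brain tissue (Tgfb1, Nrros) rest on 37 to 76 counts a library, and standard errors over all genes had medians of 0.0924 to 0.185 (log2) in the 6 comparisons.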
